A study of Mus musculus with 21 samples.

Results

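Ngfr, Bdnf, Ntf3, Ntrk2, Ntrk3, Sort1 and Gdnf, genes of the low-affinity neurotrophin receptor and of neurotrophin signalling, were followed in mouse bone marrow stroma before and during the growth of human acute myeloid leukemia. These 7 of the 26852 genes measured were selected on values already seen, above all the level of Ngfr at the late time point, so their values are given as a description with no test. All 7 were found in the data, and 4 of them (Ngfr, Ntrk2, Ntrk3 and Sort1) passed a filter on low values, a mean over all libraries of at least log2(10), that 12976 genes passed. The other 3, all of them secreted ligands, did not.

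Neurotrophins are secreted growth factors, best known for keeping neurons alive and guiding their growth. Each binds a receptor tyrosine kinase of the Trk family, and all of them, above all in their uncleaved proforms, can also bind p75, the receptor that Ngfr encodes. Sortilin, the product of Sort1, pairs with p75 to bind the proforms and also carries proteins between compartments inside the cell. In bone marrow, p75 is known as a surface marker of mesenchymal stromal cells, and it also marks Schwann cells of peripheral nerves.

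The samples were 21 bulk RNA-seq libraries of sorted mesenchymal stromal cells with low expression of a Nestin reporter, from immunodeficient NSG mice carrying that reporter. Mice were 8 to 12 weeks old at transplant and received no conditioning, and blood cells were depleted with magnetic beads before sorting. The control group (ctrl, n = 3) came from mice without leukemia, and the others from mice carrying HL60 or ML1, established human myeloid leukemia lines that release a lipid-permeable mCherry protein taken up by neighbouring cells. At the early stage of leukemia, stroma was sorted into cells that had taken up the label (early ch+, n = 6) and cells that had not (early ch-, n = 6), and at the late stage a single fraction was taken (late, n = 6), with 3 libraries of each line in each of these groups. The stages are defined by engraftment, and the labels give no time in days or weeks for them. The study states that the early ch- cells came from the same marrow as the early ch+ cells, so the early fractions share mice. The labels name no mouse for any library, so the fractions were not paired. The tests treat their libraries as separate, and the p-values below measure the spread between these samples. The 3 late ML1 libraries carry a treatment label that reads as unengrafted, against their titles and their time point. They were kept as late by title, and most late differences and list counts are also given for HL60 alone.

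Values are expression values on the regularized log scale of DESeq2, as deposited by the authors, which pulls low genes toward a floor. They were read as log2 from their range, which is too high for the base 10 that the study's methods name. Read counts cannot be recovered from them, and the depth of each library is not given. Summed on the linear scale, in units of 1e6, the totals ran from 8.41 to 9.02 in late HL60, from 7.26 to 7.46 in late ML1 and from 11.2 to 14.7 in the other 15 libraries. Every library was also rescaled to the mean of these totals, which is what rescaled means below. The median difference of all tested genes between late and ctrl then moved from 0.02 to 0.71. With quantile normalization that median was 0.03, near the value as deposited. Between late and early ch+ the medians were 0.02 as deposited, 0.63 rescaled and 0.05 with quantile normalization. The shift was thus seen with the totals and not with quantile normalization. A sum on the linear scale gives most weight to the genes of highest value. Which scaling is right was not tested. The direction of a late difference can depend on this choice, and rescaled values are given beside most late differences. The study's methods state that reads were strand-specific and counted by strand.

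**Figure D1:**
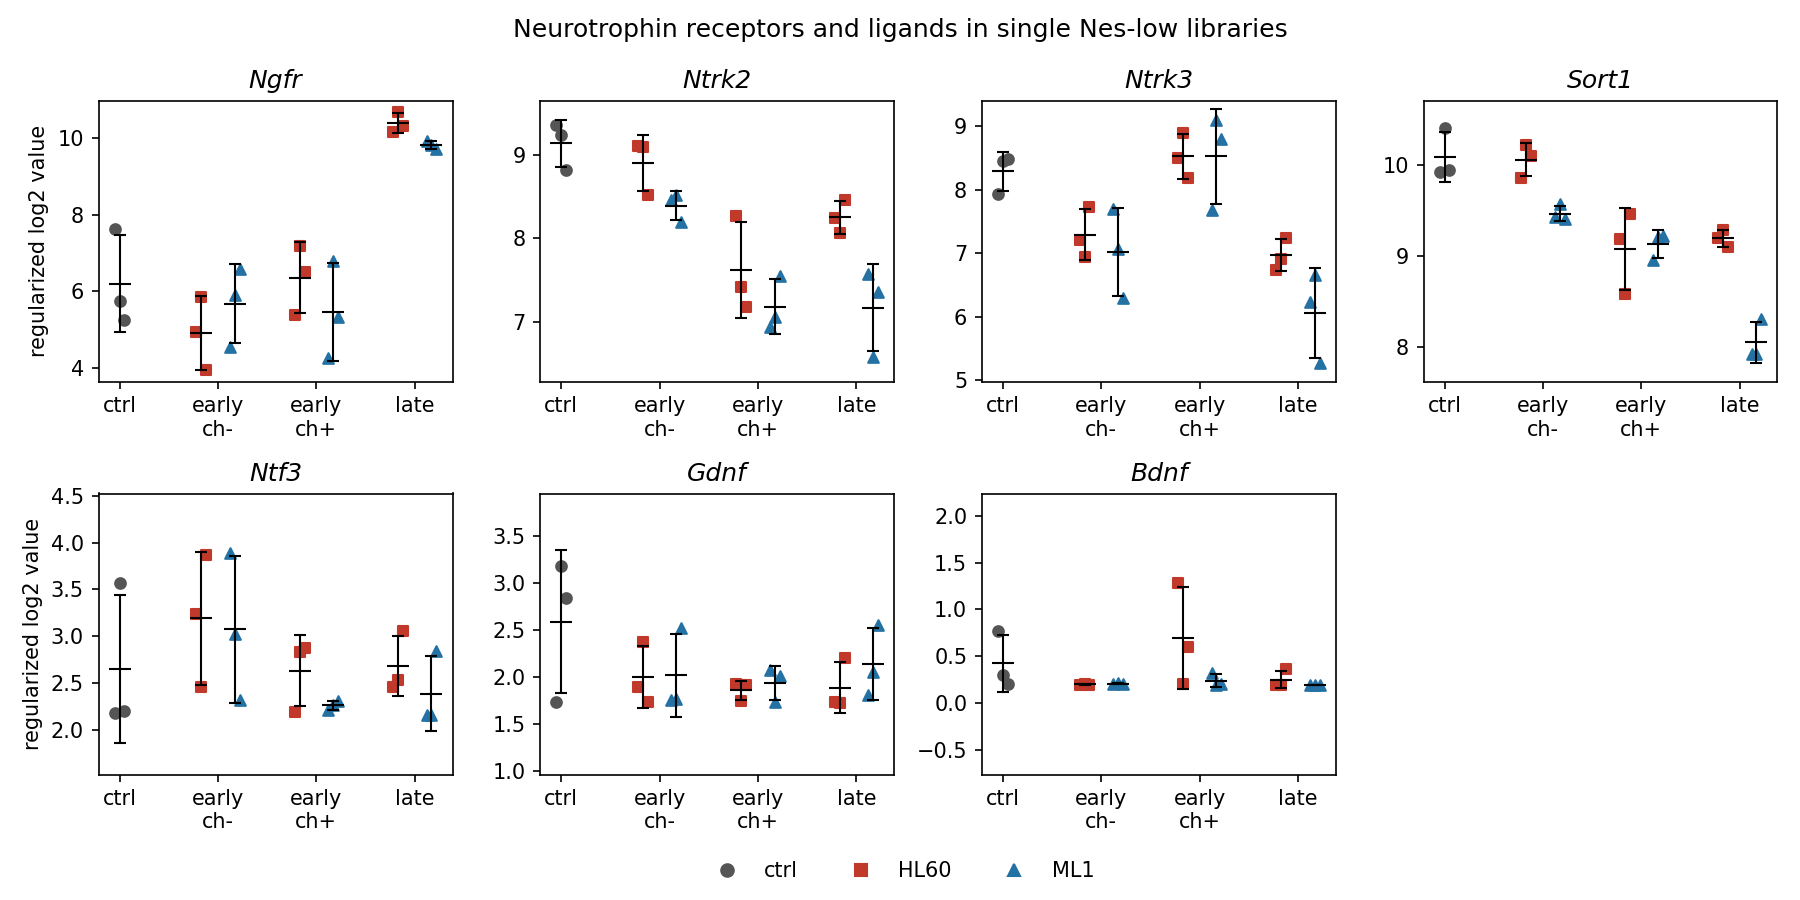
Regularized log2 value (vertical axis) of Ngfr, Ntrk2, Ntrk3, Sort1, Ntf3, Gdnf and Bdnf in each library (points), by group and leukemia line, with the mean as a black line and bars of 1 SD. The 6 late libraries of Ngfr sit between 9.72 and 10.69, above all 15 others, whose highest value is 7.63, while no value of Bdnf, Gdnf or Ntf3 exceeds 3.89.

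Ngfr (ENSMUSG00000000120, GRCm38 chr11:95568818-95587735, minus strand) was far higher in late stroma than anywhere else. Its log2 value was 7.63, 5.74 and 5.24 in the 3 ctrl libraries. In late stroma it ran from 9.72 to 10.69 with a median of 10.05. The lowest late library lay 2.08 above the highest of the 15 others, so late did not overlap any other group, in either line. Such a separation, all 6 late libraries above all 15 others, was met by 248 of the 12976 tested genes, or 1.91%.

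The early fractions did not share that level. Early ch- ran from 3.94 to 6.57 with a median of 5.40, and early ch+ from 4.26 to 7.19 with a median of 5.94. Both overlapped ctrl and each other. By group mean and SD, the order was late at 10.11 ± 0.36 (n = 6), ctrl at 6.20 ± 1.26 (n = 3), early ch+ at 5.91 ± 1.11 (n = 6) and early ch- at 5.29 ± 0.99 (n = 6), and the last 3 did not differ beyond their spread. The spread itself was smallest in late.

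The difference of Ngfr between late and ctrl was 3.91 ± 0.55 (SE) on the log2 scale, a 15.0-fold ratio, and that between late and early ch+ was 4.20 ± 0.45, an 18.4-fold ratio. In both comparisons it was the largest positive difference among the 12976 tested genes, which describes how Ngfr was chosen. HL60 alone, without the libraries of doubtful label, gave 4.19 ± 0.53 against ctrl and 4.03 ± 0.53 against early ch+, and ML1 gave 3.62 against ctrl. Rescaling to library totals gave 4.60 against ctrl and 4.82 against early ch+. The ctrl level rested partly on replicate 373, without which the difference between late and ctrl was 4.62.

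Differences in Ngfr before the late stage were smaller than those of late. Early ch+ against ctrl was -0.29 ± 0.55, and it turned to 0.42 without ctrl replicate 373, to 0.04 without early ch+ replicate 538 and to 0.16 in HL60 alone. The lowest value on leaving out a library was -0.78, and the early ch+ mean in ML1 was 5.46, against 6.20 in ctrl. Early ch- against ctrl was -0.91 ± 0.55, with -1.29 ± 0.59 in HL60, -0.53 ± 0.59 in ML1 and -0.20 without ctrl replicate 373. Between early ch+ and early ch- the difference was 1.45 ± 0.59 in HL60 and -0.21 ± 0.59 in ML1, and the lines' differences were 1.66 ± 0.83 apart. Leaving out each library in turn moved that gap between the lines from 1.06 to 2.33.

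Ntrk2 (ENSMUSG00000055254, chr13:58806569-59133970, plus strand), which encodes TrkB, the receptor for brain-derived neurotrophic factor, was highest in ctrl. Its log2 value there was 9.36, 9.24 and 8.83. Early ch- ran from 8.20 to 9.11 with a median of 8.52, early ch+ from 6.93 to 8.27 with a median of 7.29, and late from 6.58 to 8.46 with a median of 7.82. Neither early ch+ nor late reached the lowest ctrl library. Early ch- overlapped ctrl in HL60 (8.52 to 9.11) and lay wholly below it in ML1 (8.20 to 8.52). Within late, the HL60 libraries (8.25, 8.06 and 8.46) lay above the ML1 libraries (7.57, 6.58 and 7.35).

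The lower level of Ntrk2 was thus present early in the labelled fraction. Against ctrl, the difference was -1.74 ± 0.31 in early ch+, -0.49 ± 0.31 in early ch- and -1.43 ± 0.31 in late. The early ch- mean was 8.91 in HL60 and 8.39 in ML1, against 9.14 in ctrl. Early ch+ lay below early ch- by a difference of -1.25 ± 0.26. Late against ctrl was -0.89 in HL60 and -1.98 in ML1, and -0.74 for both lines after rescaling to library totals. Late against early ch+ was 0.31 ± 0.26 as deposited, 0.93 after rescaling, 0.64 in HL60 and -0.01 in ML1, so no direction can be given for that step.

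Ntrk3 (ENSMUSG00000059146, chr7:78175959-78738012, minus strand), which encodes TrkC, the receptor for neurotrophin-3, took another order. Its log2 value was 7.93, 8.45 and 8.48 in ctrl. Early ch+ ran from 7.68 to 9.10 with a median of 8.64, early ch- from 6.30 to 7.73 with a median of 7.13, and late from 5.28 to 7.24 with a median of 6.70. Early ch+ overlapped ctrl, while every early ch- and every late library lay below every ctrl library. Late did not overlap early ch+ either.

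For Ntrk3 the unlabelled fraction was the lower of the early fractions, the reverse of Ntrk2. The difference from ctrl was 0.24 ± 0.35 in early ch+, -1.13 ± 0.35 in early ch- and -1.78 ± 0.35 in late. Early ch+ exceeded early ch- by 1.37 ± 0.28, and late against early ch+ was -2.01 ± 0.28. After rescaling to library totals, the late differences were -1.08 against ctrl and -1.40 against early ch+. Late against ctrl was -1.32 in HL60 and -2.23 in ML1, and late against early ch+ was -1.56 in HL60 alone.

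Sort1 (ENSMUSG00000068747, chr3:108284082-108361511, plus strand) was, like Ntrk2, highest in ctrl, with log2 values of 9.92, 10.40 and 9.94. Early ch- ran from 9.41 to 10.21 with a median of 9.71, early ch+ from 8.58 to 9.46 with a median of 9.20, and late from 7.92 to 9.28 with a median of 8.70. Early ch+ and late lay wholly below ctrl. Early ch- overlapped ctrl in HL60 (9.85 to 10.21) and lay wholly below it in ML1 (9.41 to 9.56). In late stroma the lines stood apart, with 9.19, 9.28 and 9.10 in HL60 against 7.92, 7.92 and 8.31 in ML1.

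The difference of Sort1 from ctrl was -0.33 ± 0.27 in early ch-, -0.99 ± 0.27 in early ch+ and -1.47 ± 0.27 in late. The early ch- mean was 10.05 in HL60 and 9.46 in ML1, against 10.09 in ctrl. Late against ctrl was -0.90 in HL60 and -2.04 in ML1, and -0.78 after rescaling to library totals. Early ch+ against early ch- was -0.66 ± 0.22, with -0.98 in HL60 and -0.33 in ML1. Late against early ch+ was -0.48 ± 0.22, but 0.12 in HL60, -1.08 in ML1 and 0.13 after rescaling, so the step from early ch+ to late had no steady direction. On the deposited scale, late stroma thus had the highest mean of Ngfr and the lowest of Sort1, whose products form a joint receptor.

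The ligands Bdnf, Ntf3 and Gdnf were low on this scale, where shrinkage leaves little of a difference to be seen. Bdnf (ENSMUSG00000048482, chr2:109674700-109727007, plus strand), which encodes brain-derived neurotrophic factor, ranged from 0.19 to 1.28, and 15 of 21 libraries lay within 0.05 of its lowest value. Its 3 ctrl values were 0.77, 0.30 and 0.20. Bdnf was not detectably different between groups on these values, and all groups overlapped.

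Ntf3 (ENSMUSG00000049107, chr6:126101412-126166910, minus strand), which encodes neurotrophin-3, ranged from 2.16 to 3.89. Its ctrl values were 2.18, 3.57 and 2.21, and its medians were 3.13 in early ch- and 2.29 in early ch+. In late it ran from 2.16 to 3.05. Gdnf (ENSMUSG00000022144, chr15:7810846-7837575, plus strand), which encodes glial cell line-derived neurotrophic factor, a ligand of the Ret receptor and not itself a neurotrophin, ranged from 1.73 to 3.19. For each of these genes all groups overlapped. Gdnf lay within 0.05 of its lowest value in 8 of 21 libraries, and Ntf3 in 5.

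Levels of different genes can be compared only per length, here as the mean log2 value per kb of exon, over all annotated exons of a gene together. That length was 3446 bases for Ngfr, 7569 for Sort1, 19292 for Ntrk2 and 30170 for Ntrk3. Which transcripts were expressed is not known, so the order depends on this choice of length. In ctrl the order of the receptors was Sort1 at 7.17, Ntrk2 at 4.87, Ngfr at 4.42 and Ntrk3 at 3.37. Ngfr did not differ there from Ntrk2 or from Ntrk3 beyond its SD (1.26). In late stroma the order was Ngfr at 8.33, Sort1 at 5.70, Ntrk2 at 3.44 and Ntrk3 at 1.60, so Ngfr stood first in late. Without division by length, Ngfr was the lowest of these receptors in ctrl, at 6.20 against 8.29 for Ntrk3 and 9.14 for Ntrk2. It was still first in late, at 10.11 against 8.62 for Sort1. The ligands were at 1.88 for Ntf3, 0.71 for Gdnf and -2.21 for Bdnf in ctrl and at 1.76, 0.14 and -2.41 in late. They are not ranked, since all of them lay under the filter and many of their values close to the floor of the scale.

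The wider pathway was described with a list of 78 other gene symbols, comprising ligands, receptors and co-receptors, proteases that cleave proneurotrophins, adaptors of p75, adaptors of Trk receptors, and immediate target genes. Of these, 76 were in the data and 61 were tested, in a fit of limma across all 12976 tested genes with Benjamini-Hochberg adjustment at an adjusted p of 0.1. The comparisons with ctrl share the same 3 libraries.

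Late stroma differed from ctrl in 13 of the 61 pathway genes, of which 8 rose and 5 fell. Among all tested genes, 10.2% rose and 11.4% fell, and the median difference was 0.10 for the pathway genes and 0.02 for all. After rescaling to library totals the pathway counts were 43 higher and 4 lower, where 7786 of all 12976 tested genes were higher and 516 lower, so for the pathway as for all genes the balance of directions depends on the scaling. In HL60 alone 6 pathway genes rose and 4 fell, where 822 of all tested genes rose and 934 fell. By role, the called genes comprised receptors (1 higher and 1 lower of 12), proteases and inhibitors (1 higher and 2 lower of 8), p75 adaptors (1 higher and 1 lower of 10), Trk adaptors (1 higher and 1 lower of 19) and targets (4 higher of 12), while none of the 4 other ligands on the list passed the filter on low values. In the same order of roles, rescaling gave 6 higher and 1 lower, 6 and 2, 8 and 0, 13 and 1, and 10 and 0, and HL60 alone gave 2 and 0, 1 and 2, 0 and 1, 1 and 1, and 2 and 0.

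The calls with the largest differences between late and ctrl were in proteases and receptors. Pcsk6, a proprotein convertase, fell by 3.19 ± 0.40 (SE) on the log2 scale (adjusted p = 1.02e-06, limma), lower in 6 of 6 late libraries. Pcsk5, another convertase, fell by 1.59 ± 0.26 (adjusted p = 4.18e-05), also lower in 6 of 6. Plat, tissue plasminogen activator, which generates the plasmin that cleaves proneurotrophins, rose by 2.20 ± 0.28 (adjusted p = 1.14e-06), higher in 6 of 6. Pcsk5 and Pcsk6 thus went the opposite way to Plat, while the other convertases of the list, named after their values were seen, were not called. Furin was at -0.30 ± 0.15 and Pcsk7 at 0.41 ± 0.35, neither passed in HL60 alone, at -0.33 and 0.24, and both were called higher after rescaling, at 0.39 and 1.11. Ret, the signalling receptor for the Gdnf family, rose by 1.92 ± 0.41 (adjusted p = 0.00102), higher in 6 of 6, while Gdnf stayed under the filter on low values. Sorcs2, a relative of Sort1 that also pairs with p75, fell by 1.42 ± 0.35 (adjusted p = 0.00457), lower in 6 of 6 with some overlap of the groups. In HL60 alone its difference of -0.70 did not pass, and the other calls held, at -2.06 for Pcsk6, -1.04 for Pcsk5, 2.23 for Plat and 1.49 for Ret. After rescaling all 5 passed, at -2.49 for Pcsk6, -0.90 for Pcsk5, 2.89 for Plat, 2.61 for Ret and -0.73 for Sorcs2.

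**Figure D2:**
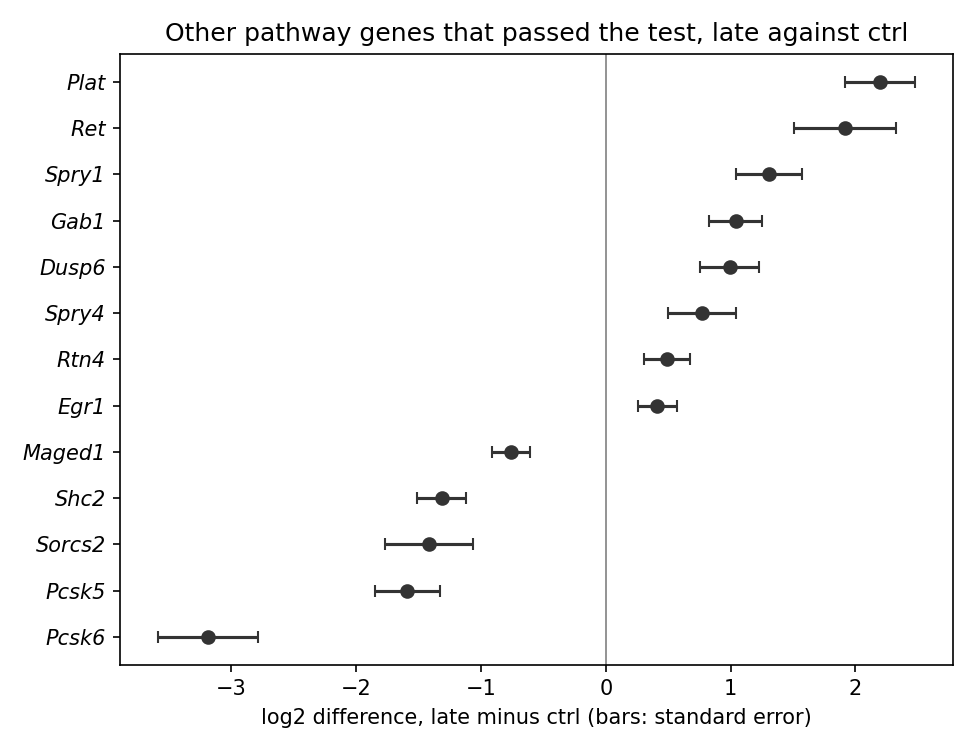
Log2 difference between late (n = 6) and ctrl (n = 3) libraries, with bars of 1 SE, for the 13 pathway genes called by limma at an adjusted p of 0.1. Values run from -3.19 for Pcsk6 to 2.20 for Plat, and 8 of the genes lie above 0.

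Between late and early ch+, 13 pathway genes rose and 10 fell, against 8.79% and 10.9% of all tested genes. The medians were 0.17 and 0.02. Rescaling gave 47 higher and 2 lower, where 8443 of all tested genes were higher and 588 lower, and HL60 alone gave 6 and 2, where 524 of all tested genes were higher and 762 lower. Pcsk6 fell by 3.59 ± 0.33 (adjusted p = 2.27e-09), and Plat rose by 2.10 ± 0.23 (adjusted p = 5.31e-08), each in 6 of 6 late libraries. The differences of Pcsk6 and Plat were therefore seen against the labelled early fraction as well as against ctrl. Bex3, which encodes a p75-binding protein, rose by 1.23 ± 0.27 (adjusted p = 0.00114), and Gfra1, the co-receptor through which Gdnf binds Ret, by 1.16 ± 0.32 (adjusted p = 0.0099), both in 6 of 6, with some overlap of the groups for Gfra1. Dusp4, a phosphatase of MAP kinases induced by them, rose 2.33-fold (SE 0.36 on the log2 scale, adjusted p = 0.0156), above the early ch+ mean in 6 of 6 with some overlap of the groups, but its difference in HL60 alone was 0.33 and did not pass. The other calls held in HL60 alone, at -2.49 for Pcsk6, 2.21 for Plat, 1.14 for Bex3 and 1.01 for Gfra1. After rescaling all 5 passed, at -2.98 for Pcsk6, 2.71 for Plat, 1.84 for Bex3, 1.78 for Gfra1 and 1.84 for Dusp4.

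Early ch+ differed from ctrl in few pathway genes. None rose and 2 fell, where 3.41% of all tested genes rose and 2.75% fell. At an unadjusted p under 0.05 limma gave 8 of 61. Gfra2, the co-receptor for neurturin, fell by 1.17 ± 0.38 (adjusted p = 0.0829), and Shc2, an adaptor of Trk receptors, by 0.59 ± 0.19 (adjusted p = 0.0869), each lower in 6 of 6. The early ch+ values of Gfra2 ran from 2.82 to 3.25, under the filter level of 3.32 and near the floor of the scale. Neither call was firm. The count was 0 without ctrl replicate 373 or 374 or without early ch+ replicate 523, 524 or 538, it was 1 without early ch+ replicate 525, 539 or 541, and it was 0 in each line alone and after rescaling.

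Early ch- differed from ctrl in 1 pathway gene upward and 1 downward, where 1.13% of all tested genes rose and 0.786% fell. Furin, a convertase that cleaves proneurotrophins, fell by 0.60 ± 0.15 (adjusted p = 0.0373), lower in 6 of 6. Fos, an immediate early gene, rose by 0.52 ± 0.14 (adjusted p = 0.0516), higher in 6 of 6. The count of 2 became 0 without ctrl replicate 373 or 375 and 1 without ctrl replicate 374 or early ch- replicate 544 or 546. In ML1 alone the Furin difference of -0.46 did not pass, nor did that of Fos after rescaling, at 0.45.

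Comparing the early fractions asks what goes with the uptake of the label within leukemic marrow. Early ch+ against early ch- gave 2 pathway genes higher and 3 lower, with 3.58% of all tested genes higher and 2.68% lower. After rescaling 8 pathway genes were higher and 1 lower, where 841 of all tested genes were higher and 229 lower. Gfra2 fell by 2.12 ± 0.31 (adjusted p = 2.53e-05, limma), with all 6 early ch+ libraries below every early ch- library. Its early ch+ values, from 2.82 to 3.25, lay near the floor of the scale, 3 of them within 0.05 of its lowest value. The size of this difference is therefore uncertain. Ret rose by 1.49 ± 0.33 (adjusted p = 0.00525), in 6 of 6, although in ML1 alone its difference of 1.04 did not pass.

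Furin was 0.85 ± 0.12 higher in early ch+ than in early ch- (adjusted p = 1.37e-05), in 6 of 6. Egr1 fell by 0.51 ± 0.13 (adjusted p = 0.0126) and Fos by 0.46 ± 0.11 (adjusted p = 0.0115), each in 6 of 6. Egr1 and Fos are immediate early genes, which dissociation and sorting of cells are also known to induce. The Egr1 call was lost under rescaling and under quantile normalization, at differences of -0.36 and -0.26, and the Fos call under rescaling, at -0.30.

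By counts of called genes, the leukemia lines differed in late stroma and hardly before it. Between HL60 and ML1, 4.09% of all tested genes differed in late, 0.0154% in early ch+ and 0.0539% in early ch-, and 0.00771% differed in the change from early ch- to early ch+. Of the 61 pathway genes, 6 were higher and 3 lower in late HL60, where 410 of all tested genes were higher and 121 lower. After rescaling 5 pathway genes were higher and 4 lower, and 261 of all tested genes higher and 444 lower, so the balance over all genes turned with the scaling. No pathway gene was called by limma in early ch+ (2 at an unadjusted p under 0.05), in early ch- (8) or in that change (1). As a description, Ntrk2 and Sort1 were higher in HL60 than in ML1 in early ch-, by 0.52 and 0.59.

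Pcsk6 was 2.25 ± 0.18 higher in late HL60 than in late ML1 (adjusted p = 4.67e-10), and Pcsk5 1.09 ± 0.23 (adjusted p = 0.00274). Both convertases were below ctrl in each line, but more so in ML1. Sorcs2 was 1.44 ± 0.31 higher in HL60 (adjusted p = 0.00414), and Tnfrsf19, a receptor of the same family as p75, 1.14 ± 0.20 (adjusted p = 0.00049). Ncam1, an adhesion molecule that serves as a co-receptor for Gdnf, was 1.28 ± 0.16 higher (adjusted p = 1.13e-06). As deposited, the difference of Ncam1 from ctrl was 0.63 in HL60 and -0.65 in ML1. Rescaled values by line are not given for it, and its sign in ML1, whose late totals were the lowest, can depend on the scaling. For each of these genes, all 3 HL60 libraries were above all 3 ML1 libraries. Ntrk2 and Sort1 lay in the same direction, with differences between the lines of 1.09 ± 0.28 and 1.14 ± 0.20, while that of Ngfr was 0.57 ± 0.59. Rescaling made these differences smaller, at 2.00 for Pcsk6, 0.85 for Pcsk5, 0.89 for Tnfrsf19 and 1.04 for Ncam1, all still called, as was Sorcs2, and 0.84 for Ntrk2, 0.90 for Sort1 and 0.32 for Ngfr.

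Markers of other cell types moved between the same groups, and their part in the values above was not tested. In these bulk libraries, fewer cells of a type and less RNA per cell cannot be told apart. The sort itself rests on Nestin, and the Nes mean was 7.39 in ctrl, 7.32 in early ch-, 7.30 in early ch+ and 7.30 in late. The extraction text, shared by all samples, also names a sort on CD31, encoded by Pecam1, whose mean was 5.59, 5.54, 5.74 and 4.87 in these groups. Ptprc, the pan-leukocyte marker CD45, was low in ctrl (2.56) and late (2.43) and had higher means in early ch- (4.21) and early ch+ (4.79). In early ch- its mean was 3.28 in HL60 and 5.13 in ML1. With both lines together, its difference from ctrl in early ch- did not pass (adjusted p = 0.12, limma). By line, that difference passed in ML1, at 2.57 ± 0.48 (adjusted p = 0.00259, limma), and did not in HL60, at 0.73 ± 0.48. Early ch+ against ctrl passed with both lines together, at 2.23 ± 0.50 (adjusted p = 0.00629, limma).

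Schwann cells and glia express Ngfr, so their markers stand first. Of 12 markers, 9 were tested, and in late against ctrl none rose and 4 fell, with a median of -0.71 (1 rose and 1 fell after rescaling, with a median of -0.02). In early ch+ 6 fell against ctrl and 7 fell and 1 rose against early ch-, and in late 3 rose and 2 fell against early ch+. After rescaling 7 rose in late against early ch+, where 65.1% of all tested genes rose. In HL60 alone 3 fell in late against ctrl, and limma called 0 in late against early ch+ (1 at an unadjusted p under 0.05). Early ch- against ctrl gave 0 by limma and 1 at an unadjusted p under 0.05. Their summed log2 level had medians of 11.5 in ctrl, 11.1 in early ch-, 11.5 in early ch+ and 10.6 in late, with Pmp22 most abundant (10.80) and Gfap, Foxd3 and Mal under the filter. This sum rests mostly on Pmp22 and says little of the other markers. Neuron markers were near the floor, with none of the 8 in the data tested, Tubb3 most abundant at 1.80, and sums from 3.19 to 3.93 in all libraries.

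Markers of CXCL12-abundant reticular cells, the leptin receptor-positive stroma, were high throughout. Of 10 tested, 8 rose and 1 fell in late, 8 rose in early ch+ and 1 rose in early ch-, each against ctrl, 2 rose in early ch+ against early ch-, and 3 rose and 3 fell in late against early ch+. The median sums were 15.8 in ctrl, 16.3 in early ch-, 16.7 in early ch+ and 16.9 in late, with Cxcl12 most abundant (15.84). Late against ctrl gave 10 higher after rescaling and 7 higher in HL60 alone. Late against early ch+ gave 9 higher and 1 lower after rescaling, and 2 higher and 1 lower in HL60 alone, so the balance of that step depends on the scaling.

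Chondrocyte markers were low in the groups in which Ntrk2 was low. All 10 fell against ctrl in late and in early ch+, and all 10 fell in early ch+ against early ch-, whereas limma called 0 in early ch- against ctrl (1 at an unadjusted p under 0.05). The median sums were 16.4 in ctrl, 15.8 in early ch-, 13.8 in early ch+, 14.0 in late HL60 and 12.0 in late ML1, with Col2a1 most abundant (14.13), and 5 of 10 were higher in late HL60 than in late ML1 (4 after rescaling). All 10 also fell in late against ctrl after rescaling and in HL60 alone. Late against early ch+ gave 1 lower as deposited, 5 higher after rescaling and 1 higher in HL60 alone, so no direction can be given for that step. Smooth muscle and pericyte markers, with Rgs5 most abundant (12.54), fell in 7 of 10 in early ch+ against ctrl and against early ch-, and in late 5 fell and 1 rose against ctrl (3 and 3 after rescaling, 5 and 1 in HL60 alone). Against early ch+, 6 rose and 1 fell in late, with 9 and 1 after rescaling and 5 and 1 in HL60 alone. Their median sums were 14.7 in ctrl, 14.3 in early ch-, 13.2 in early ch+ and 13.9 in late, so by group on the deposited scale they too were lower where Ntrk2 was lower. Between the lines within a group, the order of Ntrk2 was not seen in these sums, and a link with Ntrk2 was not tested. The sums were 13.9 in both lines in late, and 14.2 in HL60 and 14.4 in ML1 in early ch-.

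Osteoblast markers moved late and by line, as Sort1 did in part. Of 9 tested, 7 fell and 1 rose in late against ctrl and likewise against early ch+, and 8 were higher in late HL60 than in late ML1 (7 after rescaling). Late against ctrl gave 6 lower and 1 higher both after rescaling and in HL60 alone, and late against early ch+ gave 6 lower and 3 higher after rescaling and 5 lower and 2 higher in HL60 alone. In early ch+ limma called 0 against ctrl (1 at an unadjusted p under 0.05) and 1 fell against early ch-. The median sums were 20.4 in ctrl, 18.9 in late HL60 and 16.5 in late ML1, with Col1a1 most abundant (19.27). Tendon and periosteal fibroblast markers, with Fmod most abundant (10.49) and Clec3b, Scx and Tnmd under the filter, gave 3 lower and 1 higher of 6 tested in late and 1 of each in early ch+, both against ctrl. The late counts were the same after rescaling, and 2 fell in HL60 alone. Late against early ch+ gave 2 lower and 1 higher, with 2 and 2 after rescaling and 1 lower in HL60 alone. Their median sums were 12.6 in ctrl, 11.5 in late HL60 and 9.62 in late ML1.

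Blood cell RNA was higher in the early groups than in ctrl. Blood cells had been depleted with beads, and per the study's methods the remaining cells were stained for CD45 and for Ter119, a red cell antigen, at the sort. All 9 tested blood markers rose in early ch+ and 8 in early ch-, and in late 3 fell, each against ctrl. Their median sums were 8.91 in ctrl, 10.9 in early ch-, 11.1 in early ch+ and 7.70 in late, with Lyz2 most abundant (8.26). Red cell markers, with Hbb-bs most abundant (9.13), rose in 8 of 8 in early ch+ and 7 of 8 in early ch-, and 4 fell in late, with median sums of 8.78, 12.9, 13.1 and 6.67 in the same order. The late count against ctrl was 0 by limma for blood markers after rescaling (0 at an unadjusted p under 0.05) and 1 lower in HL60 alone. For red cell markers 4 fell and 1 rose after rescaling, and 4 fell in HL60 alone. Against early ch+, all 9 blood markers fell in late as deposited, after rescaling and in HL60 alone, and all 8 red cell markers fell as deposited and after rescaling and 7 in HL60 alone. Between the early fractions limma called 0 genes of either (0 at an unadjusted p under 0.05) with both lines together. By line, Ptprc was 1.59 ± 0.48 higher in early ch+ than in early ch- in HL60 (adjusted p = 0.0753), above the early ch- mean in 3 of 3 with some overlap of the groups, while its difference of -0.42 ± 0.48 in ML1 did not pass, nor did the difference between the lines of 2.01 ± 0.68 (adjusted p = 0.66).

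The remaining lists moved less evenly. All 5 tested skeletal muscle markers rose in early ch+ against ctrl, 1 rose in early ch-, and 1 fell in late, with Acta1 most abundant (5.12). Endothelial markers, with Cdh5 most abundant (6.40), gave 0 of 6 calls by limma in late against ctrl (1 at an unadjusted p under 0.05) and 3 fell in late against early ch+. After rescaling 2 endothelial markers rose against ctrl and 1 rose against early ch+, so their direction depends on the scaling, and in HL60 alone limma called 0 in either comparison (1 at an unadjusted p under 0.05 in each). The skeletal muscle count in late against ctrl was 0 by limma after rescaling (0 at an unadjusted p under 0.05) and in HL60 alone (1), whereas all 5 fell in late against early ch+ as deposited, after rescaling and in HL60 alone. The only megakaryocyte marker tested, Ppbp (3.79), fell in late against early ch+, a call lost after rescaling and in HL60 alone.

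The genes whose pattern was most like that of each receptor were found by Pearson r over the 21 libraries, as a description, since the libraries share their groups. For Ngfr they were Cygb (r = 0.914), Igfbp7 (0.911), Ccn5 (0.910), Tnfrsf21 (0.902) and Gsr (0.897), all of them higher in late than in ctrl. Tnfrsf21 encodes a death domain receptor of the same family as p75. Of these 5, only 1 was among the 5 most alike by Spearman rho, so the order of the likest genes rests on the measure.

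For Ntrk2 they were Sox9 (r = 0.935), Myh11 (0.927), Fmod (0.920), Mia (0.907) and Col9a1 (0.898). Sox9 and Col9a1 belong to the chondrocyte list, Myh11 to the smooth muscle list and Fmod to the tendon list. For Ntrk3 they were Fbln7 (r = 0.893), Clic5 (0.891), Ly6a (0.890), Ntn1 (0.890) and Fn1 (0.881). For Sort1 they were Nr4a2 (r = 0.913), Tbx2 (0.902), Ctnnb1 (0.896), Twist1 (0.888) and Tent5a (0.888). The lists of the 4 receptors had no gene in common. Among the receptors themselves, r over the 21 libraries was 0.788 between Ntrk2 and Sort1, 0.376 between Ntrk3 and Sort1, 0.0470 between Ntrk2 and Ntrk3, and -0.589, -0.532 and -0.270 between Ngfr and Sort1, Ntrk3 and Ntrk2.

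The promoter of Ngfr is printed because Ngfr had the largest difference of the 7 genes. RefSeq promoters (GRCm38.p6) were found for 5 of the 7, namely Ngfr, Bdnf, Ntf3, Ntrk2 and Gdnf. The 213 bases before the annotated start, chr11:95587736-95587948 on the minus strand, have a GC content of 70.9%, against a median of 51.6% over all promoters at the same length. They were searched on both strands for GGGCGG, the core of the GC box bound by Sp1, and for GCGNGGGCG, the site of Egr factors, motifs that can overlap. Capitals mark the 3 matches to GGGCGG, all on the strand printed.
Ngfr: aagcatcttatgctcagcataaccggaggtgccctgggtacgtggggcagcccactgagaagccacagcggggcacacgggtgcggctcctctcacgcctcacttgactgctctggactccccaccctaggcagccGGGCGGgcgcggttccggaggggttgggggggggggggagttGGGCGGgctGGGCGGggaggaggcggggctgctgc
GGGCGG is held by 8990 of 32851 promoter windows of that length, or 27.4%. GCGNGGGCG had 0 matches in this window and is held by 1154, or 3.51%. A match describes the letters and does not show a bound site.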

How the data were processed

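Bulk RNA-seq libraries of sorted mouse bone marrow stroma (21) were read from a single deposited table of 26852 genes, 26686 of them with a symbol. Its values, as deposited by the authors, are regularized log values and were read as log2 from their range and the convention of DESeq2, whereas the study's methods name base 10. The authors aligned strand-specific reads to mm10 with STAR 2.5.1b, counted with RSEM 1.2.29 and used DESeq2 (1.10.1 per the labels, a later version per the methods). The study gives a typical depth only. Depth per library is unknown, so no counting interval is given.

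Genes with a mean of at least 3.32 (log2 of 10), 12976 in all, were fitted in R 4.3.3 with limma 3.58.1 (trended eBayes, two-sided, Benjamini-Hochberg within each comparison, adjusted p under 0.1), in 4 groups, or 7 for contrasts between lines. The fit was tested on simulated data. Tables and plots used Python 3.11.15, numpy 2.4.6, pandas 2.3.3 and matplotlib 3.10.9, and positions came from GENCODE on GRCm38.

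The 7 genes, the pathway list and the marker lists (Schwann and glia, neuron, CXCL12-abundant reticular, osteoblast, chondrocyte, smooth muscle and pericyte, tendon and periosteal fibroblast, skeletal muscle, endothelial, blood, red cell, megakaryocyte) were chosen with earlier results of these data known. Genes named are the 7, at most the 5 called pathway genes of largest difference per comparison, the 5 genes of highest Pearson r per tested receptor, the most abundant and lowest markers of each list, and Nes, Pecam1 and Ptprc. Furin and Pcsk7 in late were named after their values were seen. The pathway gene Mmp7 and the neuron markers Elavl4 and Th have no value under these symbols, and Ngfrap1 is a former symbol of Bex3, which the pathway list also holds. Alternatives were other filters, scalings, weights, thresholds and trend settings, each line alone, and leaving out each library.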

Additional observations from a re-analysis of the deposited data

Results flagged for a closer look

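In early and late groups of 6 libraries, 22 genes named in the report were checked for a library far from the others, 66 groups in all, and 5 stood apart. Chance alone sets about 1 in 20 groups apart. Bdnf was 1.28 in early ch+ HL60 replicate 523 against 0.20 to 0.60 in the other early ch+ libraries, and 0.36 in late HL60 replicate 399 against 0.19 to 0.20, at values near the floor. In early ch+, Pcsk5 was 9.02 in HL60 replicate 523 against 9.29 to 9.42, Tnfrsf19 was 10.57 in the same library against 10.02 to 10.22, and Shc2 was 8.23 in HL60 replicate 524 against 8.72 to 8.89. Early ch+ HL60 replicate 523 thus stood apart for 3 of the genes.

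The leukemia lines differed in late stroma by limma, with HL60 above ML1 by log2 differences of 2.25 for Pcsk6, 1.44 for Sorcs2, 1.28 for Ncam1, 1.14 for Tnfrsf19 and 1.09 for Pcsk5. Since both lines share the ctrl libraries, this is also the difference between their changes from ctrl. Ntrk2 (1.09) and Sort1 (1.14) differed between the lines in the same direction, as a description. The late ML1 libraries are those whose treatment label reads as unengrafted, so line and label cannot be told apart.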

How the results depend on the processing

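The study states that both early fractions came from the same marrow, but no paired analysis was run. The labels name no mouse and give each library its own replicate number, so the tests treat the fractions as separate. Pairing by the order of the replicate numbers, which the labels do not tie to mice, was not tried. Ngfr was higher in late than in ctrl and early ch+ under all 27 alternatives run, by 3.42 to 4.62 and 3.87 to 4.82. Ngfr was chosen on its late level, and all its late libraries lay above all others. Leaving out a library or taking either line alone could therefore not turn that direction, and the count is no support for it. Among the 4 tested genes of the 7 and the pathway genes named for a comparison, no difference called as deposited reversed in that comparison. Furin, called at -0.56 in late against early ch+ and named after its values were seen, was 0.06 after rescaling and did not pass. Where a value changed, the cause was not tested. Depth, which is not given per library, limits what can be said of Bdnf, Ntf3 and Gdnf.

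Pathway genes called in early ch+ against ctrl numbered 1 with no filter, with a mean of at least log2(50), with quantile normalization and with no trend, and 0 after rescaling, with array weights, in HL60 alone, in ML1 alone and at an adjusted p of 0.05. In early ch- against ctrl they numbered 1 after rescaling, with no trend, with array weights and at 0.05. In early ch+ against early ch- they numbered 9 after rescaling and 8 with 7 groups. In late they numbered 47 against ctrl and 49 against early ch+ after rescaling, and 8 against early ch+ in HL60 alone.

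Tested genes called after rescaling were 8302 in late against ctrl and 9031 against early ch+. HL60 alone gave 1756 and 1286, and 478 in early ch+ against early ch-, where ML1 alone gave 460. At 0.05, early ch+ against ctrl gave 512 and early ch- 156, and array weights gave 156 for early ch-. Between the lines, late gave 1183 with array weights. Early ch+ gave 8 with no filter, 4 with quantile normalization, and 0 with no trend and with array weights. Early ch- gave 1 with no filter, and 0 with no trend and at 0.05. The difference between the lines in the change from early ch- to early ch+ gave 0 at log2(50) and with array weights.

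After rescaling, late against ctrl was -0.74 for Ntrk2, -1.08 for Ntrk3 and -0.78 for Sort1, and late against early ch+ was 0.93, -1.40 and 0.13. In HL60 alone late against ctrl was -0.89 for Ntrk2 and -0.90 for Sort1, and in ML1 alone -1.98 and -2.04. Late against early ch+ for Sort1 was 0.12 in HL60 and -1.08 in ML1.

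Of the 5 genes most like each receptor by Pearson r, Spearman rho shared 1 for Ngfr, 1 for Ntrk2, 0 for Ntrk3 and 2 for Sort1, and the 18 libraries without ctrl shared 2 for Ntrk3 and 3 for Sort1.

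Leaving out each library in turn, pathway counts ran from 10 to 15 in late against ctrl, 0 to 2 in early ch+ and 0 to 3 in early ch- against ctrl, 5 to 6 between the early fractions, 18 to 23 in late against early ch+ and 6 to 9 between the lines in late. All tested genes ran from 2212 to 2870, 542 to 836, 136 to 280, 676 to 844, 2190 to 2620 and 383 to 562 in the same order, and between the lines from 0 to 6 in early ch+, 0 to 10 in early ch- and 0 to 2 for the difference in their change.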
